A study of Anguilla anguilla and Anguilla rostrata with 84 samples.

Results

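The dietary PCB dose series is a set of 13 eels whose liver RNA was measured on arrays at 3 ordered dose levels. The fish were chosen by their treatment labels alone: Control (4 fish), PCB at 50 ng/g dry weight of food (5 fish, PCB 50) and PCB at 300 ng/g dry weight of food (4 fish, PCB 300). They are 13 of the 84 fish of the study, which covered laboratory exposures and wild sites, and every one of the 992 contigs on the array were analysed. Control replicate 5 was left out, because its deposited raw columns were identical, over all 2976 spots, to those of a high salinity fish.

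All 13 fish were European eels, Anguilla anguilla, held in the laboratory. Both PCB groups received the compounds by the trophic route, that is, with the food. The sources used here do not give the congeners in the mixture, the length of exposure, the age and sex of the fish, or whether the control food carried a vehicle. Each array compared Cy3-labelled liver RNA of 1 fish with the same Cy5-labelled pool of liver RNA from 30 wild eels of Certes, France. Values are therefore log2 ratios of fish over pool, on which a difference of 1 is a factor of 2. For context, 7 other laboratory treatments of the same species entered the fit. Among these, 3 changed the conditions, with water at 18 per mil salinity, a temperature of 13 degrees C, or a restrictive diet in which food was 2.5% of body weight. The other 4 were exposures to cadmium by water (0.4 or 4 ug/L), to food with 5 ug/g (dry weight) of methylmercury, or to food with 13 ng/g (dry weight) of organochlorine pesticides (OCP).

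Polychlorinated biphenyls are persistent, fat-soluble industrial chemicals that build up in long-lived, fatty fish such as eels. The liver is the main organ that metabolises them. Planar congeners bind the aryl hydrocarbon receptor, a transcription factor that switches on genes such as cyp1a, which encodes a monooxygenase that oxidises foreign compounds. The contigs are assembled transcript sequences, and the files do not pair them with gene names. In the gene table of the European eel reference assembly, 0 of 992 contig identifiers matched a name. Contigs are therefore given by identifier, with no function, and neither cyp1a nor any liver marker could be looked up.

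The arrays of the series differed in how much of the array was measurable. A contig counted as above background on an array where its mean background-subtracted signal over 3 spots was above 0 in both channels. This held for 753, 842, 599 and 674 contigs in Control replicates 1 to 4. It held for 980, 990, 470, 987 and 377 contigs in PCB 50 replicates 1 to 5, and for 952, 869, 783 and 956 in PCB 300 replicates 1 to 4. PCB 50 thus held both the fullest arrays and the emptiest ones. Its replicate 3 had 660 contigs above background in the fish channel and 491 in the pool channel, while replicate 5 had 379 in the fish channel and 811 in the pool channel. The mean share of contigs above background was 89.7% ± 8.25 in PCB 300 and 72.3% ± 10.5 in Control (SD, n = 4 each). The difference did not pass an exact two-sided permutation test over 70 arrangements (p = 0.0571, adjusted p = 0.343 over 6 tests). The mean share was 76.7% ± 31.2 in PCB 50 (SD, n = 5) against 72.3% ± 10.5 in Control (exact permutation p = 0.762).

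**Figure D1:**
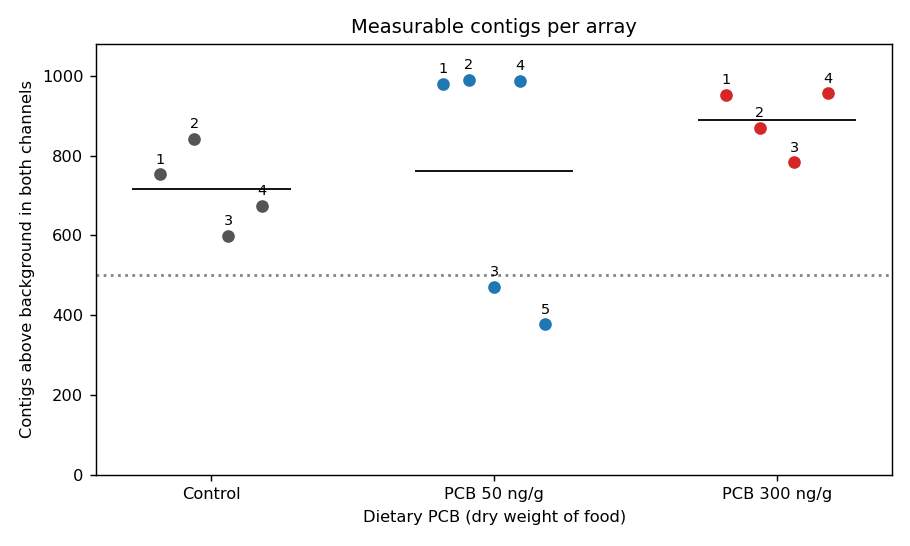
Number of contigs above background in both channels (y axis) on each array of the dose series, by dietary PCB dose; each point is 1 fish, numbered by replicate, and bars are group means. PCB 50 replicates 3 and 5 lie below the dotted line at 500, and the other 3 PCB 50 arrays lie at 980 to 990.

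Over all contigs, the 3 bright PCB 50 arrays (replicates 1, 2 and 4) correlated with each other at 0.647 to 0.796 and the 2 dim ones at 0.776. Bright with dim arrays correlated at 0.393 to 0.656. Correlations within Control were 0.475 to 0.694 and within PCB 300 they were 0.596 to 0.813. Between groups the median was 0.563 for PCB 300 with PCB 50, 0.571 for PCB 300 with Control and 0.544 for PCB 50 with Control, against medians of 0.552 to 0.626 within groups. The 3 spots of a contig had a median SD of 0.162, and fish of 1 group had a median SD of 0.268 in Control, 0.249 in PCB 50 and 0.257 in PCB 300. Outside the series, replicate 4 of the low temperature group had correlations of -0.565 to -0.495 with its other 4 arrays, so its direction is not settled. It enters the results below through the shared spread and through the mean of the low temperature group, and so through the mean and ranges of the 7 treatments and the order of the 10 laboratory groups. Without it, each PCB or Control mean named below as the highest or lowest of the 10 held that place.

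Across the 3 dose levels, 2 contigs differed in limma's F test (adjusted p below 0.05), which is 0.202% of the 992 tested. They showed different shapes. contig_24468 was lowest at 50 ng/g, whereas contig_6312 was highest at 300 ng/g. At an unadjusted p below 0.05 there were 17.8% of contigs.

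contig_24468 had log2 ratios of 0.36, 0.83, 0.11 and 0.24 in the 4 Control fish, -1.15, -0.69, -0.35, -0.51 and -0.34 in the 5 PCB 50 fish, and 0.20, -0.07, -0.14 and -0.29 in the 4 PCB 300 fish. Every PCB 50 fish lay below every fish of the other groups, and 3 of 4 PCB 300 fish lay below all Control fish. The F test gave an adjusted p of 0.0192. PCB 50 was lower than Control by 0.99 (estimate -0.99, SE 0.20, adjusted p = 0.00802). PCB 300 was at -0.46 relative to Control (95% interval -0.87 to -0.041, adjusted p = 0.346) and at 0.54 relative to PCB 50 (0.14 to 0.93, adjusted p = 0.176), so neither of these steps passed. Among the 10 laboratory groups PCB 50 had the lowest mean (-0.61) and Control the highest (0.38), with the 7 other treatments at -0.25 to 0.20. The 3 bright PCB 50 arrays averaged -0.78 and the 2 dim ones -0.35. The F call was kept in 18 of 23 alternative settings. It was lost without PCB 50 replicate 1, the lowest fish. It was also lost with median centring (adjusted p = 0.108), with no background subtraction (adjusted p = 0.0526) and when only the groups compared were fitted (adjusted p = 0.0604). The authors' processed values with Control replicate 5 lost it too.

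contig_6312 showed little spread at the high dose. It measured 0.33, -0.31, 0.29 and -0.12 in Control, -0.08, -0.07, -0.01, 0.17 and -0.12 in PCB 50, and 0.86, 0.96, 0.91 and 0.95 in PCB 300. The 4 PCB 300 fish lay above all 9 others, and the SD was 0.31 in Control, 0.11 in PCB 50 and 0.045 in PCB 300. The spots of this contig had SDs of 0.0575 to 0.229 on the PCB 300 arrays. The small spread among those fish is therefore not read as a trait of the dose. The F test gave an adjusted p of 0.0192 and PCB 300 exceeded PCB 50 by 0.94 (SE 0.20, adjusted p = 0.0254). Against Control the difference was 0.87 (95% interval 0.45 to 1.30), which did not pass (adjusted p = 0.081). PCB 50 and Control differed by -0.07 (95% interval -0.48 to 0.33). The mean of PCB 300 (0.92) was the highest of the 10 laboratory groups, and the 7 other treatments ran from -0.08 to 0.39. This contig was dim: its signal above background in the fish channel had a median of 434 intensity units over the PCB 300 arrays and 35 over the Control arrays, and PCB 50 replicate 5 was not above background. The F call was lost without PCB 50 replicate 1 or PCB 300 replicates 2, 3 or 4. In the authors' processed values PCB 50 replicate 3 stood at 2.74, above the PCB 300 fish at 0.95 to 1.40. The F call was lost there too (adjusted p = 0.0875), and it was kept in 14 of 23 alternative settings.

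A monotonic trend was tested as a slope over the dose levels 0, 1 and 2. No contig passed. The number called by limma was 0 (0%), with 11.9% of contigs at an unadjusted p below 0.05 and a smallest adjusted p of 0.186. The count stayed at 0 when any 1 fish was left out. Of the contigs that met the naming conditions, those with the smallest p in each direction are given, and none of them passed. For the trend these conditions required the low-dose mean to lie between the other means, so contigs with a smaller p could be left out.

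contig_20175 had the steepest of these slopes, 0.86 per level (SE 0.26, adjusted p = 0.186). Its ratios were -0.11, -1.26, -0.17 and 0.11 in Control, 0.16, -1.08, -0.82, -0.43 and 1.03 in PCB 50, and 1.5, 0.97, 2.15 and 0.83 in PCB 300. The low-dose fish spread over most of the Control range and 1 of them reached into the PCB 300 range. The Control replicate at -1.26 rested on 3 spots with an SD of 1.33. contig_26357 had a slope of 0.47 (SE 0.15), with means of -1.17 ± 0.41 in Control, -0.98 ± 0.54 in PCB 50 and -0.24 ± 0.50 in PCB 300 (SD, n = 4, 5 and 4).

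The downward slopes were smaller. contig_16681 fell by 0.41 per level (SE 0.10, adjusted p = 0.186), yet its means of -0.27 in PCB 50 and -0.20 in Control were close, and the step came at 300 ng/g (-1.02). contig_30632 had a slope of -0.37 (SE 0.11, adjusted p = 0.186) at 0.96 ± 0.31 in Control, 0.34 ± 0.47 in PCB 50 and 0.21 ± 0.25 in PCB 300 (SD, n = 4, 5 and 4). PCB 50 replicates 3 and 5 were not above background for it and averaged 0.065, against 0.52 on the bright arrays. With the dose in ng/g in place of the level, which sets 50 close to 0, 3 contigs passed. Per 100 ng/g, contig_25366 rose by 0.57 (SE 0.13, adjusted p = 0.0171), contig_6312 rose by 0.32 (SE 0.065, adjusted p = 0.0121) and contig_16681 fell by 0.28 (slope -0.28, SE 0.061, adjusted p = 0.0144). All 3 are contigs in which PCB 50 lay near Control in the main fit. In the authors' processed values of contig_6312, Control stood at 0.11, -1.05, -1.45 and -1.81. PCB 50 replicates 1 to 4 stood there at -0.39, -0.32, 2.74 and 0.22, and replicate 5 had no value.

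A low-dose-only pattern was tested as PCB 50 minus the mean of Control and PCB 300. In limma 5 contigs passed, which is 0.504% of the 992, with 3 higher and 2 lower at 50 ng/g and 15.2% of contigs at an unadjusted p below 0.05. The 3 higher ones were contig_20014, contig_771 and contig_33173, and the 2 lower ones contig_24468 and contig_33219. Their differences lay between 0.62 and 0.76 in size.

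contig_20014 measured -1.01, -1.08, -0.93 and -1.17 in Control, -0.16, -0.69, -0.19, -0.49 and -0.21 in PCB 50, and -0.96, -1.54, -1.39 and -0.81 in PCB 300. All 5 low-dose fish lay above the other 8. The difference was 0.76 (SE 0.17, adjusted p = 0.0307), although replicate 5 of PCB 50 was not above background. Among the 10 laboratory groups, PCB 300 (-1.17) and Control (-1.05) had the 2 lowest means, and the mean of PCB 50 (-0.35) lay within the range of the 7 other treatments (-0.78 to -0.23).

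For contig_771 the Control fish were at -0.50, -0.46, -0.31 and -0.68, the PCB 50 fish at 0.29, 0.18, -0.29, 0.36 and 0.03, and the PCB 300 fish at -0.05, -1.22, -0.97 and -0.72. The low-dose fish were above all Control fish, and PCB 300 replicate 1 fell among them. PCB 50 exceeded the mean of the other 2 groups by 0.73 (SE 0.17, adjusted p = 0.0307). Here PCB 50 had the highest mean of the 10 laboratory groups (0.12), and the 7 other treatments ran from -0.78 to -0.061.

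contig_33219 showed the opposite pattern, with 0.69, 0.64, 0.89 and 1.22 in Control, 0.33, 0.05, 0.53, 0.46 and -0.09 in PCB 50, and 0.95, 1.27, 0.86 and 0.48 in PCB 300. The low-dose fish were below every Control fish and overlapped 1 PCB 300 fish. The difference was -0.62 (SE 0.15, adjusted p = 0.0307). Its signal was much weaker on the PCB 50 arrays in both channels. The fish channel had 775 to 1978 intensity units above background in Control, 10 to 202 in PCB 50 and 638 to 10847 in PCB 300. The pool, which is the same RNA on every array, had medians of 459 units in Control, 32 in PCB 50 and 473 in PCB 300. The weak fish channel alone is therefore not read as lower expression. Whether weak signal affected the ratios was not tested. In the authors' processed values the 5 PCB 50 fish stood at 1.62, 0.84, 1.93, 1.19 and -2.63 and the Control fish at 1.26 to 1.74, so the groups overlapped and the call was lost (difference -0.78, adjusted p = 0.366). With no background subtraction the difference was -0.62 and the call was kept (adjusted p = 0.000462). That setting leaves the background in both channels, so nothing about weak signal is read from it.

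contig_33173 was at -0.93, -1.12, -1.19 and -1.25 in Control, 0.03, -0.72, -0.75, 0.26 and -0.48 in PCB 50, and -0.76, -1.27, -1.02 and -0.92 in PCB 300. All low-dose fish lay above the others, the nearest by a margin far smaller than the median spot SD. The difference was 0.73 (SE 0.18, adjusted p = 0.0428), but replicates 3 and 5 of PCB 50 were not above background. The 3 bright PCB 50 arrays averaged -0.15 and the 2 dim ones -0.61. PCB 300 and Control had the 2 lowest means of the 10 laboratory groups, with PCB 50 (-0.33) inside the range of the 7 other treatments.

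**Figure D2:**
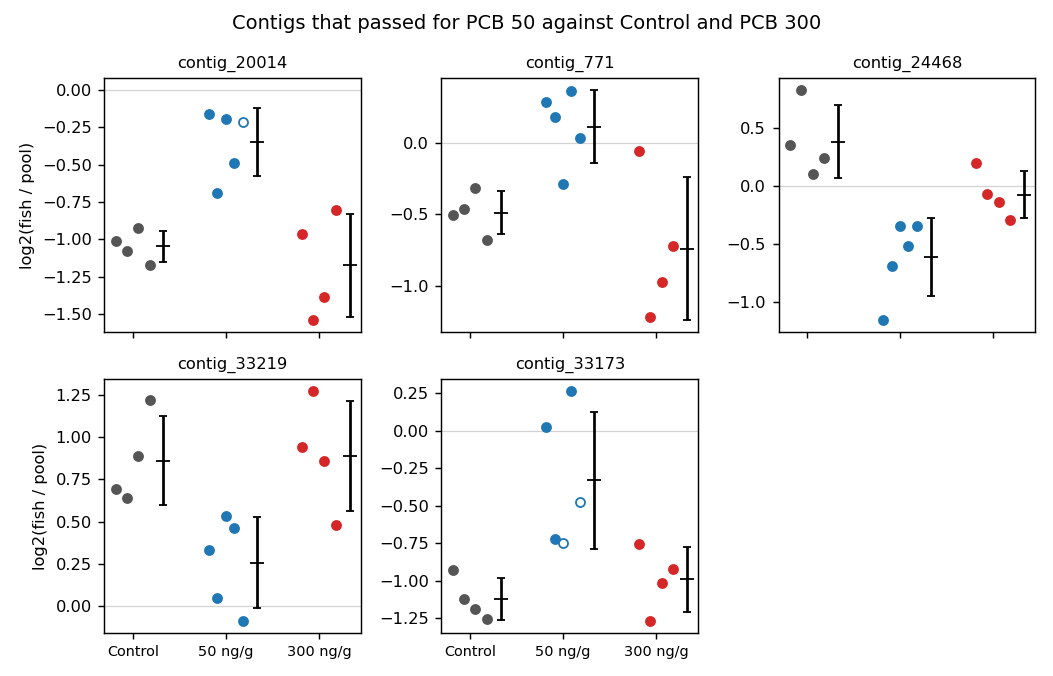
Log2 ratios of fish over pool (y axis, a scale for each contig) for the 5 contigs that passed for PCB 50 against the mean of Control and PCB 300, by dose; points are fish in replicate order, open points are not above background in both channels, and bars are group means ± SD. The 5 PCB 50 fish of contig_24468 lie between -1.15 and -0.34, below all other fish, and those of contig_20014 lie above all other fish.

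The low-dose calls depended on single fish and on the scaling. Without PCB 50 replicate 1 limma called 0 contigs (10.8% at an unadjusted p below 0.05), and without PCB 300 replicates 2 or 3 it also called 0 (12.4% and 12.9%), while without Control replicate 2 or PCB 50 replicate 2 it called 9. Leaving out Control replicate 4 or PCB 50 replicate 5 left contig_24468 as the only call. Median centring in place of loess gave 0 (8.17% unadjusted), scaling between arrays gave 1 lower and 0 higher, and without the 2 dim PCB 50 arrays and the other array under 500 contigs 13 passed, 4 higher and 9 lower. Of 16 contigs that passed on the processed ratios of the authors, only contig_24468 was among these 5. Its groups overlapped there, with PCB 50 replicate 3 at 0.11 and Control replicate 3 at -0.09. Its lowest fish there was the dim PCB 50 replicate 5, at -2.98. On those ratios the difference was 1.15 for contig_20014 (adjusted p = 0.0555), 0.366 for contig_771 (adjusted p = 0.815) and 1.52 for contig_33173 (adjusted p = 0.299).

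The mirror pattern, PCB 300 against the mean of Control and PCB 50, was added after the data had been seen. It was passed by 3 contigs, 0.302% of the 992, with 2 higher and 1 lower and 12.3% at an unadjusted p below 0.05. contig_6312 exceeded the mean of the lower levels by 0.91 (SE 0.18, adjusted p = 0.00849) and contig_25366 by 1.59 (SE 0.35, adjusted p = 0.0148). contig_16681 was lower by 0.79 (estimate -0.79, SE 0.17, adjusted p = 0.0148).

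contig_25366 measured -1.97, -1.46, -2.22 and -1.09 in Control, -2.47, -1.75, -1.20, -1.79 and -1.50 in PCB 50, and -0.28, 0.22, -0.63 and 0.19 in PCB 300. The 4 high-dose fish lay above the other 9, and Control and PCB 50 overlapped throughout. The spots of this contig agreed poorly on 2 of the PCB 300 arrays, with SDs of 1.31 (replicate 1) and 0.63 (replicate 3), against 0.11 and 0.0072 on the other two. PCB 300 had the highest mean of the 10 laboratory groups (-0.13) and PCB 50 the lowest (-1.74), while the 7 other treatments reached from -1.64 to -0.15, almost as high as PCB 300.

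contig_16681 was at -0.44, -0.34, 0.12 and -0.13 in Control, -0.36, -0.14, -0.17, -0.40 and -0.29 in PCB 50, and -0.82, -1.04, -1.34 and -0.88 in PCB 300. The high-dose fish lay below all others, with PCB 50 inside the Control range. PCB 300 had the lowest mean of the 10 laboratory groups (-1.02), and the 7 other treatments ran from -0.49 to 0.043. PCB 50 replicate 5 was not above background for this contig.

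**Figure D3:**
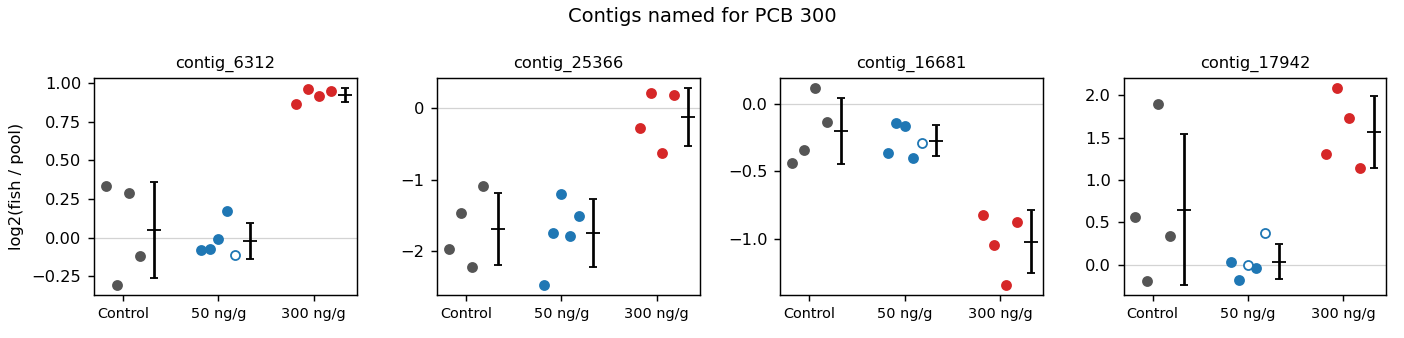
Log2 ratios of fish over pool (y axis, a scale for each contig) for 4 contigs named for PCB 300, by dose; points are fish in replicate order, open points are not above background in both channels, and bars are group means ± SD. In contig_6312, contig_25366 and contig_16681 the PCB 300 fish stand clear of the other 9, and in contig_17942 the Control fish at 1.90 lies among them.

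For the low dose alone, PCB 50 differed from Control at 3 contigs, 0.302% of the 992, with 2 higher and 1 lower and 13.1% at an unadjusted p below 0.05. The lower one was contig_24468. Both higher ones, contig_12003 and contig_30350, had their lowest mean of the 10 laboratory groups in Control.

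contig_12003 was at 0.00, -0.97, -0.52, -0.44 and -0.29 in PCB 50, against -1.05, -1.47, -1.74 and -2.37 in Control. The groups did not overlap, and the PCB 300 fish (-1.03, -1.28, -1.43 and -0.47) lay across both. PCB 50 exceeded Control by 1.21 (SE 0.29, adjusted p = 0.0429), and PCB 300 exceeded it by 0.60 (95% interval -0.0062 to 1.21, adjusted p = 0.415). The highest Control fish, at -1.05, rested on 3 spots with an SD of 1.46. contig_30350 was at 0.03, 0.10, 0.23, 0.00 and 0.27 in PCB 50, against -0.38, -0.33, -0.46 and -1.17 in Control, and the difference was 0.71 (SE 0.17, adjusted p = 0.0429). Only 2 of 4 Control arrays were above background for it, and its PCB 300 fish lay between the other groups at -0.23 to -0.02.

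The next contigs in order that met the naming conditions missed the threshold. contig_6291 was higher in PCB 50 by 0.65 (SE 0.17, adjusted p = 0.0795), and contig_21589 stood at -0.74 relative to Control (SE 0.18, adjusted p = 0.0525). PCB 50 replicates 3 and 5 were not above background for either contig. For contig_21589 the background-subtracted signal on the PCB 50 arrays was -29 to 22 intensity units in the fish channel and -15 to 35 in the pool. Without PCB 50 replicate 1 limma called 0 (10.1% at an unadjusted p below 0.05), and without Control replicates 1 and 2 in turn it called 19 and 22. Only contig_24468 was called without 1 of Control replicates 3 and 4, PCB 50 replicates 3 to 5 or PCB 300 replicates 1 and 2. Of the fits that left out 1 fish, contig_30350 lost its call in 10 and contig_12003 in 8. Median centring gave 0 (7.56% unadjusted), and scaling between arrays gave 1 in each direction. With the authors' processed values 48 of 942 contigs passed, 37 higher and 11 lower, and 1 was among these 3.

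For the high dose alone, PCB 300 differed from Control at 0 contigs in limma (0%), with 12.4% at an unadjusted p below 0.05 and a smallest adjusted p of 0.081. The count was 0 without any 1 fish. Among contigs that met the naming conditions, those with the smallest p are given, none of which passed. They stood on the higher side at 1.56 for contig_25366 (95% interval 0.73 to 2.39, adjusted p = 0.151) and 0.87 for contig_6312. On the lower side they were -0.85 for contig_33203 (-1.34 to -0.35, adjusted p = 0.175) and -0.82 for contig_16681 (-1.22 to -0.42, adjusted p = 0.081). contig_33203 was at -0.80, -1.14, -1.33 and -0.55 in PCB 300, against -0.24, -0.06, -0.01 and -0.12 in Control. Its groups did not overlap, but in the authors' processed values the difference was 0.026, with 1 Control fish at -3.68 and 1 without a value.

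Both doses pooled differed from Control at 0 contigs in limma (0%, a comparison added after the data had been seen), with 12.2% at an unadjusted p below 0.05. In the authors' processed values PCB 300 against Control gave 20 of 939 contigs, 15 higher and 5 lower, and with Control replicate 5, which those values include, 2 of 983. When only the 13 fish of the series were fitted, 4 passed, 2 higher and 2 lower.

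The doses were also set against each other. PCB 300 and PCB 50 differed at 11 contigs, 1.11% of the 992, with 4 higher (0.403%) and 7 lower (0.706%) at 300 ng/g and 14.6% at an unadjusted p below 0.05. Whether this count differs from those against Control was not tested, and the 3 comparisons share fish. The differences were 0.94 to 1.62 in the higher ones and -0.57 to -0.94 in the lower ones, with adjusted p from 0.0254 to 0.041. Control had its mean nearer to PCB 300 in 5 of the 11 and nearer to PCB 50 in 6. In 10 of the 11 the mean of PCB 50 lay outside the interval between the means of Control and PCB 300. These contigs were selected for the distance between the doses, so nothing is read from that count.

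contig_17942 was at 1.31, 2.08, 1.73 and 1.14 in PCB 300, against 0.03, -0.18, -0.01, -0.04 and 0.37 in PCB 50. The doses stood well apart, by 1.53 (SE 0.36, adjusted p = 0.038), although 2 of the PCB 50 arrays were not above background. The Control fish, at 0.56, -0.20, 1.90 and 0.33, spanned both. contig_25366 was higher at the high dose by 1.62 (SE 0.39, adjusted p = 0.0381). On the lower side, contig_771 differed by -0.86 (SE 0.20, adjusted p = 0.038) and contig_20014 by -0.83 (SE 0.20, adjusted p = 0.0404), both of which had passed for the low-dose-only pattern.

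These 11 calls rested on few fish and on the scaling. Without PCB 50 replicate 1 limma called 0 (10.7% at an unadjusted p below 0.05), without PCB 300 replicate 2 it also called 0 (10.2%), and without PCB 300 replicates 3 and 4 in turn it called 3 and 4. Median centring, scaling between arrays and the authors' processed values each gave 0 (8.57%, 11.5% and 8.19% unadjusted), whereas 26 contigs passed, 12 higher and 14 lower, once low temperature replicate 4 no longer entered the spread.

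**Figure D4:**
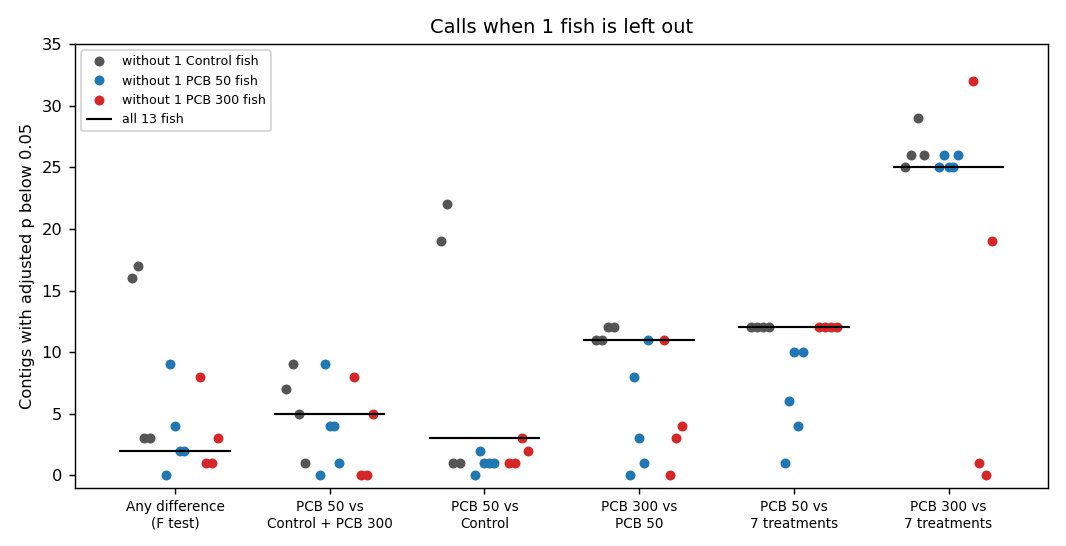
Number of contigs with an adjusted p below 0.05 (y axis) in 6 comparisons when 1 fish is left out; each point is a fit without 1 Control, PCB 50 or PCB 300 fish, and black lines are the counts with all 13 fish. For PCB 50 against Control the count reaches 19 and 22 without 1 of 2 Control fish and 0 without 1 PCB 50 fish.

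The order of the 3 group means was counted over all 992 contigs, without a test. The low dose lay between Control and PCB 300 in 359 contigs (36.2%) and outside them in 633 (63.8%). Each of the 6 possible orders held 14.4% to 18.2% of contigs. Upward order with dose was seen in 17.9% and downward order in 18.2%. The cadmium dose series, which shares the 4 Control fish, had its low dose outside in 632 contigs (63.7%). Among the 29 contigs whose 3 means spanned more than 1 on the log2 scale, the low dose lay between the others in 14 and outside in 15.

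Separation of single fish was counted in the same way. All fish of PCB 50 lay on 1 side of all Control fish in 53 contigs (5.34%, against 0.302% called), 27 higher and 26 lower. For PCB 300 and Control the number was 71 (7.16%, against 0% called), 32 higher and 39 lower, and for PCB 300 and PCB 50 it was 66 (6.65%, against 1.11% called), 27 higher and 39 lower. A staircase, with the 3 groups apart in dose order, was found in 0 contigs. PCB 50 stood apart from both other groups on the same side in 15 contigs (1.51%), 8 above and 7 below. PCB 300 did so in 20 contigs (2.02%), 8 above and 12 below, and Control in 8 contigs (0.806%), 5 above and 3 below. Of these, 10, 18 and 5 contigs were above background on at least 3 arrays of each group. The groups differ in size, so these numbers are not on the same footing.

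**Figure D5:**
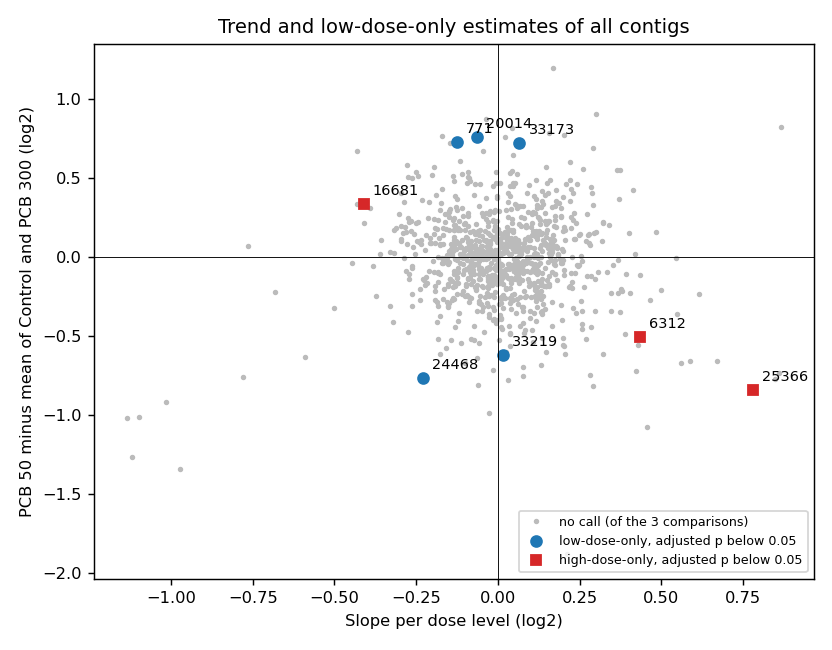
Each point is 1 of 992 contigs, placed by its slope per dose level (x axis, log2) and by PCB 50 minus the mean of Control and PCB 300 (y axis, log2). The 5 low-dose-only contigs (blue circles) lie at slopes of -0.23 to 0.07 and the 3 high-dose-only contigs (red squares) lie at slopes of -0.41 to 0.78; 0 contigs passed for the slope.

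To see what set the PCB fish apart from treated eels in general, each dose was compared with the mean of the 7 other treatments, a baseline without the Control fish. PCB 50 differed at 12 contigs, 1.21% of the 992, with 5 higher (0.47 to 1.03) and 7 lower (-0.45 to -1.11) and 11.2% at an unadjusted p below 0.05. PCB 300 differed at 25 contigs, 2.52%, with 13 higher (0.58 to 1.22) and 12 lower (-0.41 to -0.79) and 16.1% at an unadjusted p below 0.05. Control was not compared with the 7 treatments, so these counts do not separate PCB fish from unexposed fish. Among the 25, Control (0.86) lay beside PCB 300 (0.89) in contig_33219. In contig_16681 Control (-0.20) lay far from PCB 300 (-1.02). How many contigs went each way was not counted.

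contig_23680 was the highest in PCB 50 relative to these treatments, by 1.03 (SE 0.18, adjusted p = 0.00124). It measured 0.94, 0.72, 1.28, 0.32 and 1.48 in PCB 50, and the means of the 7 treatments ran from -0.20 to 0.15, so every PCB 50 fish lay above them. The 2 dim arrays averaged 1.38 and the 3 bright ones 0.66, and without the arrays under 500 contigs the call was lost. Its means were 0.0071 ± 0.20 in Control, 0.95 ± 0.45 in PCB 50 and 0.32 ± 0.52 in PCB 300 (SD, n = 4, 5 and 4). contig_18206 was also among the 5 higher. Its fish channel was saturated in at least 1 spot on 24 of 34 arrays of the 7 treatments and on 4 of 4 PCB 300 arrays, but on none of the Control or PCB 50 arrays, and the pool channel was saturated on 9 laboratory arrays. No difference and no dose order is therefore given for it.

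contig_14467 and contig_16318 were lower in PCB 50 than in the 7 treatments, by 1.11 and 0.85 (estimates -1.11 and -0.85, SE 0.25 and 0.22, adjusted p = 0.0116 and 0.038). The same fish were lowest in both. contig_14467 was at -2.07, -0.80, -0.55, -1.62 and -0.20 in PCB 50, and contig_16318 at -1.88, -0.46, -0.03, -1.29 and -0.02. These were replicates 1 and 4, and the calls of both contigs were lost without either of those fish. The call of contig_16318 was also lost without replicate 2. Against Control, PCB 50 did not pass for either contig (adjusted p = 0.205 in limma for both). contig_14467 averaged -0.18 in Control and -0.30 in PCB 300, and contig_16318 averaged 0.052 and -0.30. The bright PCB 50 arrays averaged -1.50 and the dim ones -0.38 for contig_14467. For contig_16318 they averaged -1.21 and -0.026.

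In PCB 300, contig_31893 exceeded the 7 treatments by 1.22 (SE 0.33, adjusted p = 0.0275), at 0.59, 2.07, 2.20 and 1.64. Its means were 0.39 ± 0.71 in Control, 0.78 ± 0.71 in PCB 50 and 1.63 ± 0.73 in PCB 300 (SD, n = 4, 5 and 4), in the order of dose but with wide overlap, and 2 dim PCB 50 arrays averaged 1.52 against 0.29 on the bright ones. contig_17942 exceeded them by 1.12 (SE 0.28, adjusted p = 0.0246). contig_16681 was lower by 0.79 (estimate -0.79, SE 0.15, adjusted p = 0.0033) and contig_33203 by 0.76 (estimate -0.76, SE 0.18, adjusted p = 0.0195). In both of these PCB 300 had the lowest mean of the 10 laboratory groups.

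Among the 25 contigs that passed for PCB 300, 4 were above background on fewer than 3 arrays of a group. Without PCB 300 replicate 3 limma called 0 (9.78% at an unadjusted p below 0.05) and without replicate 2 it called 1, and for PCB 50 the count was 1 without replicate 1. Median centring gave 5 higher and 0 lower for PCB 50 and 0 higher and 1 lower for PCB 300, and scaling between arrays gave 7 higher and 6 lower for PCB 50 and 0 higher and 1 lower for PCB 300.

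How often a group held the most extreme mean was also counted over the 10 laboratory groups, without a test. Control had the highest or lowest mean in 18.3% of contigs, PCB 50 in 14.8% and PCB 300 in 22.0%. Low temperature (31.5%), cadmium at 4 ug/L (29.9%) and cadmium at 0.4 ug/L (22.9%) exceeded all 3. Without low temperature replicate 4 the shares were 17.5% in Control, 15.3% in PCB 50 and 21.4% in PCB 300, with 31.1% in low temperature. Groups of 4 fish have less precise means than groups of 5, which bears on Control, PCB 300 and cadmium at 4 ug/L.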

How the data were processed

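Cy3 marked the liver RNA of a fish and Cy5 that of the pool, per the labels' protocols. The authors deposited foreground and background intensity values of 2976 spots (992 contigs, 3 spots each) for every array. Per the file headers and the values they are raw, and they ran from 10 to 65535 in the laboratory arrays. They also deposited processed log2 ratios per contig. From the values, these are log2 ratios of background-subtracted means, fish over pool, minus each array's median, and 47 of the 49 laboratory columns were recomputed to within 0.05. They also hold a value where both signals were below background, so that a negative mean was divided by another. This held for 306 contigs in PCB 50 replicate 3 and 177 in PCB 50 replicate 5, and for 0 to 62 on the other arrays of the series. The columns of restrictive diet replicates 2 and 3 are exchanged between the files. The sources used here do not give the scanner or software.

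The raw columns of Control replicate 5 and of cadmium 4 ug/L replicate 1 copied those of other fish, so these 2 fish were not used. In limma 3.58.1 (R 4.3.3), normexp with an offset of 50 corrected the background and loess normalized every array, after which spots were averaged. A model with a mean per group was fitted to 47 laboratory fish (lmFit, eBayes), and the trend with a single slope over dose levels 0, 1 and 2. P-values were adjusted by Benjamini-Hochberg over the contigs tested (992 in the main fit), threshold 0.05. SE and 95% intervals come from limma. Numbers of contigs above background were compared by exact permutation. The number of arrays limits the precision.

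Named contigs passed the threshold, were above background on at least 3 arrays of each dose group, and had all fish of the group named first beyond the mean of the other, on 1 side (for the trend, the mean of PCB 50 between the others). The 2 largest in each direction are named, filled where needed by the smallest p, and all are named where 5 or fewer passed. Gene and marker lists were not run, since no contig has a name. The dose groups, contigs and comparisons were chosen with earlier results of these data known. Alternatives were the authors' processed values, median centring, no correction of the background, leaving out dim contigs, scaling between arrays, fitting only the groups compared, leaving out low temperature replicate 4 or arrays under 500 contigs, other dose scales and leaving out each fish. Array quality weights, Control replicate 5 in the processed values, the high-dose-only and pooled-dose patterns, and group means without low temperature replicate 4 were added after seeing the data. The high-dose-only and pooled-dose patterns were not run under the alternatives. Per the design text each fish is an individual, and replicate numbers only name them.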

Additional observations from a re-analysis of the deposited data

Results flagged for a closer look

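PCB 300 and PCB 50, and so their changes from Control, differed at 11 contigs (1.11% of the 992) by the direct test of PCB 300 minus PCB 50. For the contigs named below, neither dose passed against Control. The count was 0 with median centring (8.57% at an unadjusted p below 0.05 in limma) and without PCB 50 replicate 1 (10.7%). It was 26 without low temperature replicate 4. The difference was 1.62 for contig_25366 and 1.53 for contig_17942, both higher at 300 ng/g. It was -0.86 for contig_771 and -0.83 for contig_20014, both lower at 300 ng/g. Adjusted p-values in limma were 0.0381, 0.038, 0.038 and 0.0404.

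One fish lay far from the rest of its group. For contig_30350, Control replicate 4 stood at -1.17 and the other 3 Control fish at -0.46 to -0.33. That array was not above background for this contig, and its 3 spots had an SD of 0.88. In all, 72 groups of values were looked at in this way, 66 of named contigs and 6 of array measures, 1 value stood out, and chance alone does this in about 1 in 20 groups.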

How the results depend on the processing

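Counts of contigs are given in the order F test, low-dose-only, PCB 50 against Control, PCB 300 against PCB 50, PCB 50 against 7 treatments and PCB 300 against 7 treatments, which were 2, 5, 3, 11, 12 and 25. Median centring gave 0, 0, 0, 0, 5 and 1, with 7.56% to 9.38% at an unadjusted p below 0.05 in limma where 0 passed. No background subtraction gave 1, 12, 7, 1, 8 and 10. The authors' processed values gave 34, 16, 48, 0, 4 and 1, and with Control replicate 5 they gave 6, 4, 17, 0, 5 and 1 (8.19% and 8.39% unadjusted where 0 passed). Without that fish, 1, 1, 1, 0, 2 and 0 of the contigs called there had also passed in the main fit. Fewer contigs could be tested in the processed values, in the same order 939, 939, 942, 989, 757 and 755. With Control replicate 5 they were 983, 983, 986, 989, 757 and 755. Leaving out contigs below the 0.25 quantile of intensity gave 10, 13, 4, 12, 12 and 28. Scaling between arrays gave 1, 1, 2, 0, 13 and 1 (11.5% unadjusted where 0 passed). Fitting only the groups compared gave 6, 0, 0, 14, 8 and 25 (14.7% and 13.0% unadjusted). Leaving out low temperature replicate 4 gave 19, 14, 5, 26, 16 and 29, and leaving out arrays under 500 contigs gave 7, 13, 7, 12, 12 and 28. Array quality weights gave 39, 25, 1, 62, 34 and 68.

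The trend count was 0 under these settings, with 8.77% to 14.1% of contigs unadjusted, except 9 in the authors' processed values and 2 with Control replicate 5. With dose in ng/g 3 passed, and 0 did as a contrast of group means (12.4% unadjusted). PCB 300 against Control gave 0 (8.87% to 14.4% unadjusted) except 20 and 2 in the processed values without and with that fish, 4 for only the groups compared and 2 with array weights. Without 1 fish in turn the ranges were 0 to 17 (F test), 0 to 9 (low-dose-only), 0 to 22 (PCB 50 against Control), 0 to 12 (PCB 300 against PCB 50), 1 to 12 (PCB 50 against 7 treatments) and 0 to 32 (PCB 300 against 7 treatments). The trend and PCB 300 against Control ranged from 0 to 0.

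Of 744 alternative values for 32 results on named contigs, 541 kept their direction and side of the threshold, 25.1% lost a call and 15 gained one. These 744 include values of results that had not passed in the main fit and so had no call to lose. The share lost among results that had passed is therefore higher than 25.1%. The direction turned in 1, PCB 300 against Control for contig_33203, at 0.0261 in the authors' processed values. The causes were not tested.

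No paired analysis was possible because the titles give only fish identifiers, and the replicate numbers used here follow accession order and pair no fish. Slide as a block was not run because each slide held 1 array.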
